A study of Bos taurus with 18 samples.

Results

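Interferon-stimulated genes were examined across clones of bovine bone marrow mesenchymal stem cells (MSCs). The group holds 39 genes, selected by symbol with earlier results of these same libraries in view, and all 39 were found among the 16989 genes counted. Because the genes were chosen by values of these libraries, their levels in the clones are given as a description, with no test. The clones, named A to Q, were 17 populations that each grew from a single cell of 1 juvenile donor, and a heterogeneous population of many cells from that donor was sequenced beside them. All were grown in monolayer on tissue culture plastic in basal medium (DMEM with serum and antibiotics), without added TGFβ, and poly-adenylated RNA was taken at passage 1. Each population gave 1 library. No clone therefore has an error of its own, and every SD below is taken over clones of 1 animal.

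Interferons are secreted proteins that cells release on sensing foreign or misplaced nucleic acid. Type I interferon binds a receptor (IFNAR1 and IFNAR2) whose kinases, JAK1 and TYK2, phosphorylate STAT2. STAT2 joins IRF9 in a transcription factor complex, ISGF3, that switches on a large set of antiviral genes. Interferon-γ acts through its own receptor, and is best known for raising the genes of antigen processing. Many of these genes are also read at a low level in unstimulated cells.

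The clone libraries held 11484812 to 18458157 reads on genes and the heterogeneous library 16092501. Levels are given as CPM, the counts of a gene scaled to these totals, and the upper limit behind a count of 0, set at 3 reads, was worth 0.1625 to 0.2612 CPM. Intervals and limits cover counting error only. All 12 markers of mesenchymal stromal cells checked, such as THY1 and ENG, had at least 10 CPM in every library. The summed level of 22 macrophage and leukocyte markers was 3.68 to 30.0 CPM in the clones, where 6 to 15 of them had 0 reads, and 229 CPM in the heterogeneous library, where 3 had 0 reads (MARCO, CD79A and MS4A1). Clones C and O were by far the closest pair of libraries, with a chi-square per degree of freedom of 4.90. The next pair, E and F, had 22.34. The counts of C and O still differed by more than sampling noise, and they are counted as separate clones below.

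Interferon-stimulated genes were read in every clone, at very different depths. Of the 39 genes, 20 had a mean of at least 1 CPM over the clones (51.28%, against 63.05% of all genes) and are called expressed here. A further 16 had a read in some library but a mean under 1 CPM, and 3 had 0 reads in all 18 libraries. The 3 genes with 0 reads were IRF7, the factor that drives most interferon-α genes, DHX58, an RNA helicase of the sensing pathway, and IFI44. The summed level of all the genes ranged from 272 to 532 CPM in the clones and was 695 CPM in the heterogeneous population. The expressed genes spread more widely than others, with a median SD of 0.584 log2 units over 17 clones against 0.33 for all 10711 genes expressed at this level. Of the 20, 16 had an SD above that of the median gene, 12 were above the 75th percentile and 6 above the 90th (OAS1Y, IFIT3, TAP1, IFI6, IFIT1 and PSMB9).

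**Figure D1:**
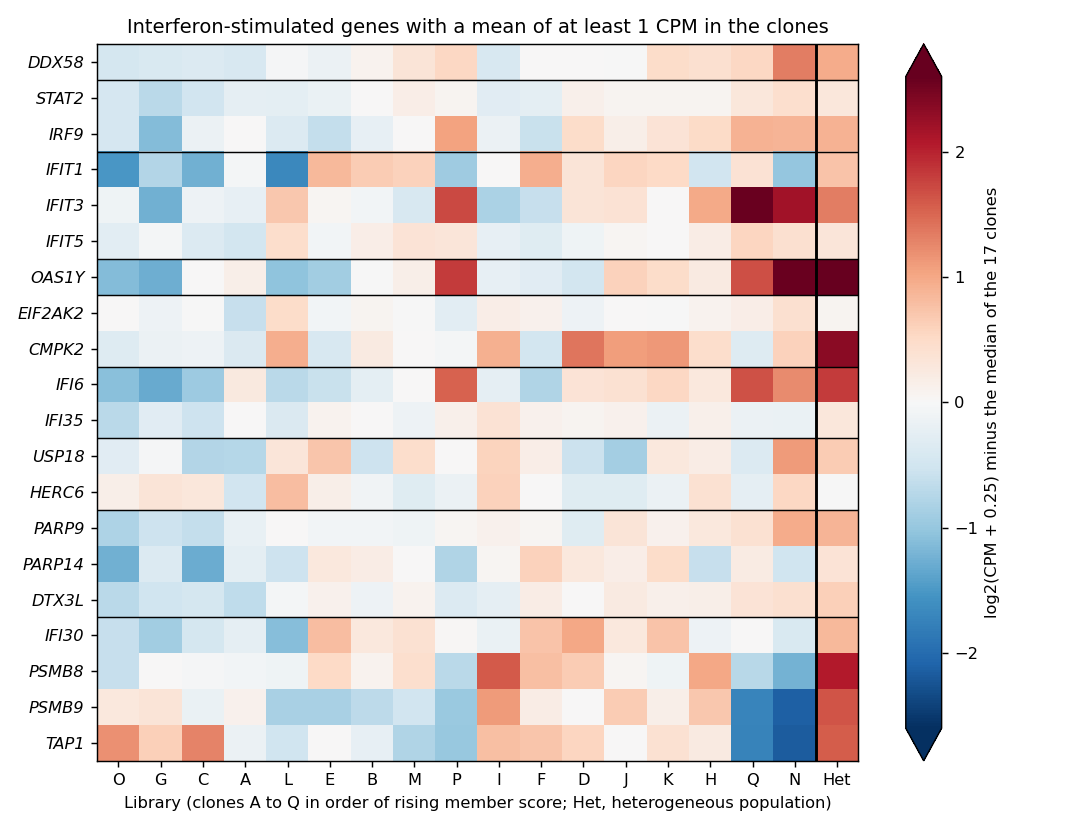
Level of the 20 expressed interferon-stimulated genes (rows, grouped by role) in each library (columns, clones in order of their median over the genes), as log2(CPM + 0.25) minus the median of the 17 clones, with red higher and blue lower. Clones N, P and Q are red for OAS1Y, IFIT3, IFI6 and IRF9 and blue for PSMB8, PSMB9 and TAP1, and the heterogeneous population is at or above the clone median for all but HERC6.

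Among the sensors of viral RNA and DNA, DDX58 was the one expressed in all clones. DDX58, also called RIG-I, binds viral RNA in the cytoplasm and starts interferon production. It was lowest in clone O at 6.23 CPM, had a median of 8.62 CPM and was highest in clone N at 22.0 CPM, with the heterogeneous population inside this range at 17.0 CPM. Clones N, P and Q gave the 3 highest values of DDX58, 22.0, 12.6 and 12.6 CPM, and the next, clone K, stood close below at 12.05 CPM. IFIH1 (MDA5), which senses long double-stranded RNA, gave 2 to 20 reads in the clones (median 7) and 67 in the heterogeneous library. IFI16, a sensor of DNA, gave 0 to 9 reads in the clones (median 3) and 34 in the heterogeneous library. For both, the heterogeneous population was above every clone.

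Of the signalling and transcription factors, STAT2 and IRF9, both components of ISGF3, were expressed throughout. STAT2 ran from 30.2 CPM in clone G through a median of 49.2 to 66.4 CPM in clone N (SD 0.30 log2 units), and was 60.0 CPM in the heterogeneous population. IRF9 varied more, from 7.88 CPM in clone G through a median of 17.4 to 36.3 CPM in clone P (SD 0.60). The 3 clones highest in IRF9 were P, Q and N at 36.3, 32.7 and 32.3 CPM, with a gap to the fourth, clone H at 24.7 CPM, and the heterogeneous population lay among them at 33.0 CPM. IRF1, a factor induced by interferon-γ, was barely read, with 0 reads in 12 clones, 3 reads at most in any clone and 2 in the heterogeneous library.

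The IFIT proteins bind foreign RNA and block its translation, and the 4 family members did not move together. IFIT1 ranged from 15.6 CPM in clone L through a median of 50.3 to 97.5 CPM in clone F, a 6.25-fold range, with the heterogeneous population at 84.8 CPM. It was lowest in clones L, O, C, N and P, at 15.6 to 26.3 CPM, and highest in F, E and B. IFIT3 was low in most clones, from 0.595 CPM in G to a median of 1.74, and reached 11.6, 8.86 and 6.29 CPM in clones Q, N and P, while no other clone passed 3.69 CPM (clone H). Clones N and P were thus among the lowest for IFIT1 and among the highest for IFIT3. IFIT5 held a narrow range from 39.1 to 80.2 CPM around a median of 54.3 (SD 0.31), and was 67.8 CPM in the heterogeneous population. IFIT2, which lies next to IFIT3 in the ARS-UCD2.0 cattle assembly, had 2 reads at most in any library. Across the clones IFIT1 and IFIT3 had a Spearman rho of -0.20, whereas IFIT3 and IFIT5 had 0.68 (n = 17 clones, both from libraries scaled to the same total).

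The MX and OAS families held the genes with the steepest differences. MX1 and MX2 are dynamin-like proteins that trap viral nucleocapsids, and both had few reads in every clone. MX1 gave 0 to 22 reads in the clones (median 7), and the 3 highest counts, 22, 21 and 18, came from clones P, N and Q, with 13 in the next, clone J. The heterogeneous library held 259 reads of MX1. MX2 gave 0 reads in 7 clones and 3 at most, against 58 in the heterogeneous library. For both, the heterogeneous population stood far outside the clones.

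The OAS proteins make 2′-5′-linked oligoadenylates that activate the nuclease RNase L, and cattle carry several OAS1 copies. OAS1Y had the widest spread of all the expressed genes (SD 1.07 log2 units, above 94.3% of expressed genes), from 0.149 CPM (2 reads) in clone G through a median of 0.708 to 5.45 CPM (75 reads) in clone N. Clones P and Q followed N with 3.12 and 2.83 CPM, and the remaining 14 clones lay at 1.20 CPM or under. The heterogeneous population was above them all at 8.33 CPM. OAS1X showed the same 3 clones at the top, with 21 reads in N, 9 in P and 7 in Q, against 2 at most in any other clone and 58 in the heterogeneous library. OAS1Z and OAS2 gave 2 reads or fewer in each clone, and 2 and 5 reads in the heterogeneous library. The OAS1 copies lie side by side in ARS-UCD2.0, as do MX1 and MX2. The OAS1, MX and IFIT genes are members of gene families, and since their sequences were not compared here, the split of reads between copies is uncertain.

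The other antiviral effectors did not follow 1 order of clones. EIF2AK2 (PKR), a kinase that halts translation on binding double-stranded RNA, was the steadiest of the 20 expressed genes, from 12.8 CPM in clone A through 19.4 to 27.2 CPM in clone L (SD 0.25), with 20.4 CPM in the heterogeneous population. CMPK2, a mitochondrial nucleotide kinase, ran from 0.664 CPM in clone F through 1.03 to 3.13 CPM in clone D, and was 6.21 CPM in the heterogeneous population. Its neighbour RSAD2 (viperin), which makes a chain-terminating nucleotide, gave 0 to 4 reads in the clones and 10 in the heterogeneous library. ISG20, an RNA exonuclease, was the gene with a different top: 35, 34, 31 and 23 reads in clones L, O, G and C, 5 to 16 in the other clones and 14 in the heterogeneous library. BST2 (tetherin), which holds budding virus at the cell surface, gave 0 to 5 reads in the clones against 14, and XAF1, a pro-apoptotic factor, 0 to 6 against 25.

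In the IFI group, IFI6, a small membrane protein, had the same 3 clones at the top as OAS1Y, in another order. It ran from 2.08 CPM in clone G through a median of 5.53 to 17.9, 16.5 and 13.2 CPM in Q, P and N, with no other clone above 8.13 CPM (clone K), and the heterogeneous population exceeded all of them at 20.2 CPM. IFI35 was steady at 8.08 to 17.4 CPM (median 13.4, SD 0.27), with 16.5 CPM in the heterogeneous population. IFI27 gave 2 reads at most in a clone and 14 in the heterogeneous library, and IFI44L 2 at most and 1.

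ISG15 is a ubiquitin-like protein that is attached to other proteins after infection, HERC6 belongs to the ligase family that attaches it, and USP18 removes it and dampens the interferon receptor. ISG15 itself gave 0 reads in clone O and 13 at most, in clone N (median 7), against 94 in the heterogeneous library. USP18 ran from 0.634 CPM in clone J through 1.39 to 3.27 CPM in clone N, with 2.36 CPM in the heterogeneous population. HERC6 ran from 6.34 CPM in clone A through 9.03 to 15.9 CPM in clone L, and the heterogeneous population lay at the median, 8.95 CPM. The modifier was thus outside the clone range in the heterogeneous population, and HERC6 and USP18 were inside it.

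PARP9 and DTX3L form a complex that modifies histones and viral proteins, and PARP14 is a related ADP-ribosyltransferase encoded beside them. PARP9 ran from 5.60 CPM in clone O through 9.94 to 19.7 CPM in N, with 18.5 CPM in the heterogeneous population. DTX3L ran from 9.41 CPM in O through 15.4 to 20.7 CPM in N, and the heterogeneous population was just above every clone at 23.7 CPM. PARP14 had other extremes, from 31.8 CPM in clone C through 78.4 to 118 CPM in F, with 100.4 CPM in the heterogeneous population. PARP9 and DTX3L varied together across the clones (rho 0.80), while PARP9 and PARP14, from the same stretch of 3 neighbouring genes, had a weaker relation (rho 0.26).

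Antigen processing was the group in which clones N, P and Q stood lowest. PSMB8 and PSMB9 are subunits of the immunoproteasome, which cuts proteins into peptides for MHC class I, TAP1 carries the peptides into the endoplasmic reticulum, and these 3 genes adjoin one another in ARS-UCD2.0. TAP1 ran from 0.653 CPM in N, 0.965 in Q and 1.79 in P through a median of 3.81 to 9.62 and 9.03 CPM in C and O, with 11.8 CPM in the heterogeneous population. PSMB8 was 2.32, 3.38 and 3.41 CPM in N, Q and P, with clone O close above at 3.69, a median of 5.73 and a highest value of 17.8 CPM in clone I, against 24.6 CPM in the heterogeneous population. PSMB9 was 0.145 CPM (2 reads) in N, 0.276 in Q and 0.635 in P, with clone E next at 0.710, a median of 1.48 and 3.48 CPM in clone I, against 5.10 CPM in the heterogeneous population. All 3 were higher in the heterogeneous population than in any clone. IFI30, a reductase that unfolds antigens in lysosomes, had another order, from 30.9 CPM in L through 66.6 to 133 CPM in D, with 119.6 CPM in the heterogeneous population.

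**Figure D2:**
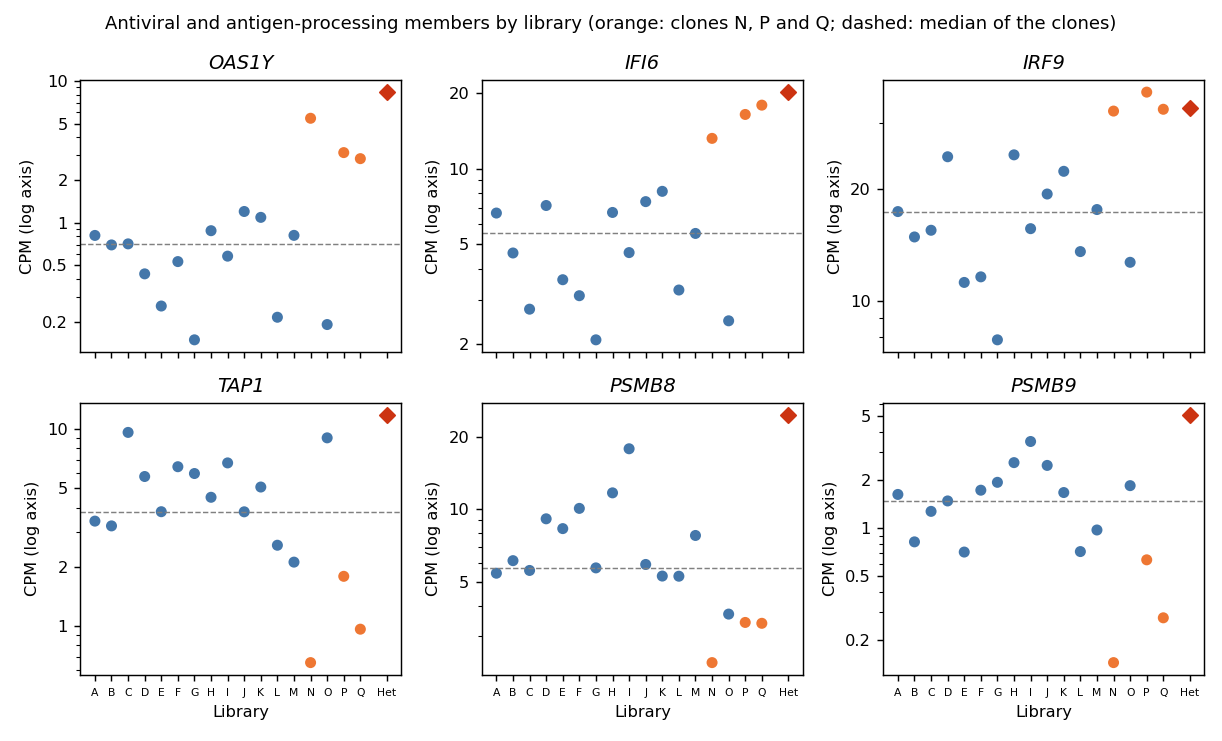
CPM (log axis) of 3 antiviral genes (top) and 3 antigen-processing genes (bottom) in each clone (circles, N, P and Q in orange) and in the heterogeneous population (diamond), with the median of the clones dashed. N, P and Q are the 3 highest clones for OAS1Y, IFI6 and IRF9 and the 3 lowest for TAP1, PSMB8 and PSMB9, while the heterogeneous population is above every clone in all panels but that of IRF9.

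Clones N, P and Q were singled out after these values were seen, so their separation is a description. Of the 20 expressed genes, 5 were higher in each of the 3 than in any of the other 14 clones (IFIT3, IFI6, OAS1Y, DDX58 and IRF9), where 5.12% of all expressed genes had this pattern, and 3 were lower (PSMB8, PSMB9 and TAP1), where 2.19% of genes had that one. MX1 and OAS1X, below the expression limit, showed the first pattern as well. Relative to the clone median, OAS1Y was higher by 2.57, 1.81 and 1.68 log2 units in N, P and Q, and IFIT3 by 2.19, 1.72 and 2.57. TAP1 differed by -2.17, -0.99 and -1.74 log2 units in the same order, and PSMB9 by -2.13, -0.97 and -1.72. When CPM was rescaled by TMM factors, an alternative chosen after the data were seen, the 5 genes above remained the same and PSMB9 left the genes below, which were then PSMB8 and TAP1. The summed macrophage and leukocyte markers were 14.4, 8.66 and 8.96 CPM in N, P and Q, inside the range of the other clones.

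Counted against the median of the clones, clone N had 5 of the 20 genes over 2-fold above (7.77% of all expressed genes were) and 4 over 2-fold below (3.31%). Clone P had 4 above (4.35%) and 0 below (1.75%), and clone Q had 3 above (4.51%) and 2 below (3.14%). At the other end, clone O had 4 of 20 over 2-fold below (2.74%): IFIT1, IFI6, OAS1Y and PARP14. The heterogeneous population had 7 of 20 over 2-fold above (3.31%) and none below. Clone N was the highest clone for 6 of the 20 genes, and it was also the highest for 20.7% of all expressed genes.

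As a summary of each library, the median over the 20 genes of the log2 difference from the clone median was taken. At the low end it was -0.45 in clone O, -0.38 in G and -0.36 in C. In A it was -0.23 (-0.07 with TMM-scaled CPM), and in L -0.18 (-0.43 with TMM-scaled CPM). It was 0.22 in K, 0.23 in H, 0.25 in Q and 0.43 in N at the high end (with TMM-scaled CPM, 0.14, 0.08, 0.21 and 0.26, and -0.61 in O), and the other 8 clones lay between -0.04 and 0.16, closer to each other than the SD over the clones of 0.24. Clone P, with 4 genes over 2-fold above, had a median of only 0.02, with PSMB8, PSMB9, TAP1, IFIT1 and PARP14 all below their clone medians. The heterogeneous population stood at 0.86, above every clone. The genes outside the list whose level followed this median most closely over the 17 clones, among 10522 compared, were EAPP, POLR2M, AFTPH and PPP3R1 (Spearman rho 0.93), OPTN, SFT2D2, NBR1, DPYD, SLC38A9 and ZNF192 (0.91), and C17H4orf33 and CD302 (0.90).

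The expressed genes did not form 1 block of co-variation. Over their 190 pairs the median rho across the 17 clones was 0.17, against 0.10 over all pairs of expressed genes, and it was 0.10 without clone C and 0.11 without G or O. A rho above 0.5 was found in 45 pairs (23.7%, against 16.6% of all pairs), one below -0.5 in 12 pairs (6.32%, against 7.11%), and 63 pairs were negative. All points share 1 scaling per library, and these coefficients are descriptions without a test.

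A first block held OAS1Y, IFI6, IRF9, STAT2, DDX58, IFIT3, IFIT5, PARP9 and DTX3L, most of them antiviral or ISGF3 genes. IFI6 and IRF9 were the most alike (Pearson r 0.94, rho 0.93), and still had rho 0.87 over the 14 clones without N, P and Q, an omission chosen after the data were seen. IFI6 and OAS1Y had rho 0.86, and 0.77 over the 14 clones. STAT2 and IRF9, the partners in ISGF3, had rho 0.77. The likeness of IFI6 with IRF9 and OAS1Y was thus also present among the clones in which all 3 were lower. Other pairs of the block were much weaker over the 14 clones. IFIT3 and OAS1Y went from rho 0.58 to 0.26, and IFIT5 and IFI6 from 0.52 to 0.27.

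A second block held IFIT1, PARP14 and IFI30. IFIT1 had rho 0.86 with PARP14 and 0.84 with IFI30 (0.85 and 0.84 over the 14 clones). Its rho with IRF9, OAS1Y and IFI6, fellow targets of interferon, was -0.11, 0.08 and 0.13. The genes whose pattern was nearest to IFIT1, looked up after the values were seen, were KLHL7 and IARS (rho 0.94), SYT4 (0.93), CROT (0.92) and COL1A2 (0.91), none of them on the list.

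TAP1 ran opposite to the first block. It had rho -0.80 with IFIT5, -0.72 with STAT2 and -0.61 with OAS1Y. Without N, P and Q these values were -0.68, -0.64 and -0.30, so the contrast of TAP1 with OAS1Y rested largely on those clones. For the rest of the first block rho with TAP1 was weaker too without those clones, between -0.44 (DDX58) and -0.20 (IRF9). Among themselves, PSMB9 and TAP1 had rho 0.71 (0.48 without the 3 clones), PSMB8 and PSMB9 0.60 (0.27) and PSMB8 and TAP1 0.49 (0.08). PSMB8 and PSMB9 did not share the opposition of TAP1 outside those clones: PSMB8 had rho -0.36 with OAS1Y over 17 clones and 0.14 over 14, and PSMB9 had -0.36 and 0.14 with IFI6. IFI30 was positive with STAT2 (rho 0.46). HERC6 was apart from all of these, with rho 0.60 to EIF2AK2 and -0.57 to IFI30.

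**Figure D3:**
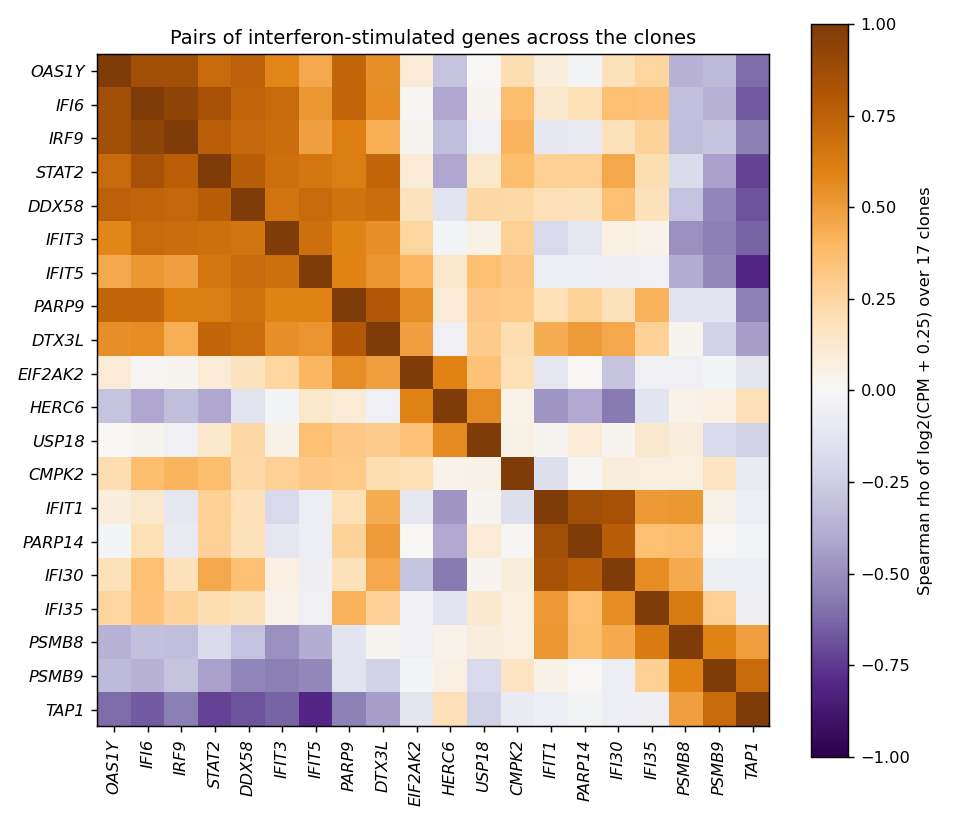
Spearman rho between each pair of the 20 expressed interferon-stimulated genes over the 17 clones, on log2(CPM + 0.25), from -1 (purple) to 1 (orange). The upper left block runs from OAS1Y to DTX3L, a smaller block joins IFIT1, PARP14 and IFI30 (rho 0.78 to 0.86), and TAP1 is negative with the first block, down to -0.80 with IFIT5.

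The clones differed widely in proliferation, and some of these genes differed with it. The median level of 15 proliferation genes (such as MKI67 and TOP2A) was 2.28 to 2.56 log2 units above the clone median in C, G, L and O, and -1.76 to 1.28 in the other 13 clones, so that C, G, L and O formed a cluster of their own and no coefficient was computed over all clones. In those 4 clones 9 of the 20 genes were below the clone median throughout (IFIT1, IFI6, IFI30, IFI35, DDX58, STAT2, IRF9, PARP14 and DTX3L), where 13.6% of expressed genes were. With TMM scaling the number was 12, but the share of all expressed genes on that scale is not given here, so the 12 have no background. IFIT1 was 29.5, 21.1, 17.4 and 15.6 CPM in G, C, O and L. HERC6 went the other way and was above the clone median in all 4, by 0.15 to 0.80 log2 units.

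Within the other 13 clones, IFIT1 was again lower where the proliferation level was higher (Pearson r -0.62, rho -0.75, n = 13), and IFI30 (r -0.53, rho -0.65) and PARP14 (r -0.46, rho -0.53) showed the same direction less closely. HERC6 (r 0.62, rho 0.42) and IFI35 (r 0.60, rho 0.41) went the other way within these clones, although IFI35 was low in C, G, L and O. The first block did not share this, with rho 0.38 for IRF9 and OAS1Y, 0.32 for IFI6 and -0.23 for STAT2. Clones N, P and Q had proliferation levels of 0.25, 0.58 and -0.37, in the middle of the clones.

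**Figure D4:**
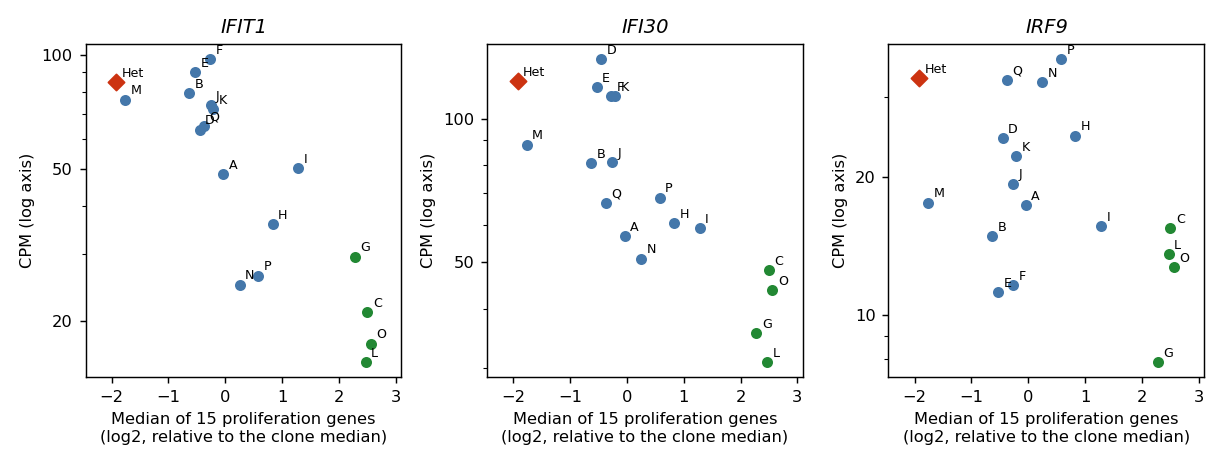
CPM (log axis) of IFIT1, IFI30 and IRF9 in each library against the median of 15 proliferation genes (log2 units relative to the clone median), with clones C, G, L and O in green, other clones in blue and the heterogeneous population as a red diamond. IFIT1 and IFI30 are lower towards the right, also among the 13 blue clones (rho -0.75 and -0.65), whereas IRF9 is highest in P, Q and N at middle values.

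The comparison of labelled groups that the design allows is the heterogeneous population against the 17 clones. In it MX1, ISG15 and IFIH1 were higher, and no listed gene was lower. Each of the 3 had 22 reads or fewer in every clone. MX2, IFI27 and XAF1 also passed the threshold, but entered the test only through the heterogeneous library. The edgeR quasi-likelihood test was fitted to 11878 genes with Benjamini-Hochberg adjustment over all of them, and the single heterogeneous library was assumed to vary as the clones do. A permutation of 1 library among 18 could not go below an exact one-sided p of 0.05556, so the test rests on that assumption.

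MX1 was higher by 4.84 log2 units (SE 0.61, edgeR adjusted p = 5.24e-05). As a ratio of CPM to the pooled clones this was 26.9-fold (95% exact interval 21.9 to 33.2, counting error only). ISG15 was higher by 3.79 log2 units (SE 0.69, edgeR adjusted p = 0.00305), or 13.5-fold (10.1 to 17.9). IFIH1 was higher by 3.17 (SE 0.50, adjusted p = 0.000637 by edgeR), or 8.58-fold (6.27 to 11.7). All 3 were also called by DESeq2 and limma-voom.

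Of the 39 genes, 30 were tested, and 6 with a read were too low for it (IFIT2, IFI44L, OAS1Z, OAS2, RSAD2 and IRF1). Of the 30, 26 passed the filter on low counts through a clone. IFI27, MX2, BST2 and XAF1 passed only through the heterogeneous library, so they had to be high there, and their values are a description. The ratio to the pooled clones was 56.1 for MX2 (95% exact interval 31.8 to 105), 24.1 for IFI27 (9.71 to 63.1), 10.5 for XAF1 (6.04 to 17.9) and 13.6 for BST2 (6.13 to 29.6). With the DESeq2 Wald test IFI27 and XAF1 had adjusted p of 0.278 and 0.0601 at log2 differences of 4.66 and 3.47.

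Among the 26 that passed through a clone, 3 were called higher, against 0.502% of the 11763 genes that did so. Over all genes tested, 6 of 30 were called higher, against 1.21%, and 0 lower, against 0.00842%, and 0 were lower by DESeq2, by limma-voom or at an unadjusted edgeR p under 0.05. The heterogeneous population was above every clone for 12 of the 26 (5.7% of genes passing through a clone), for 16 of the 30 (6.62% of all genes tested), and below every clone for 0 of the 30 (10.9%). With TMM-scaled CPM the 16 were joined by IFI35, STAT2 and PARP9, and the share of all genes on that scale is not given here. Of the log2 differences of the 26, 24 were positive, against 45.9% of genes passing through a clone, with a median of 0.87 against -0.04. The genes were chosen with earlier results of these libraries in view, so the shares in this paragraph describe the set and do not test it.

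Several further genes were above every clone without passing the edgeR test, although limma-voom called IFI16, OAS1X, OAS1Y, BST2, CMPK2 and PSMB8. OAS1X differed by 4.29 log2 units (SE 1.10, edgeR adjusted p = 0.0744), a gene in which clones N, P and Q also had reads. IFI16 differed by 3.15 (edgeR adjusted p = 0.0599), CMPK2 by 2.21 (adjusted p = 0.0757) and BST2 by 3.71 (adjusted p = 0.198). The antigen-processing genes PSMB8, PSMB9 and TAP1 differed by 1.91, 1.91 and 1.50 log2 units, with edgeR adjusted p of 0.252, 0.558 and 0.666. OAS1Y and IFI6 differed by 2.93 and 1.65, with edgeR adjusted p of 0.309 and 0.617, and the spread between the clones for these genes was wide. At the other end, HERC6 and ISG20 had differences of -0.03 and -0.03 log2 units (SE 0.32 and 0.95), and EIF2AK2 had 0.13 (SE 0.21).

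**Figure D5:**
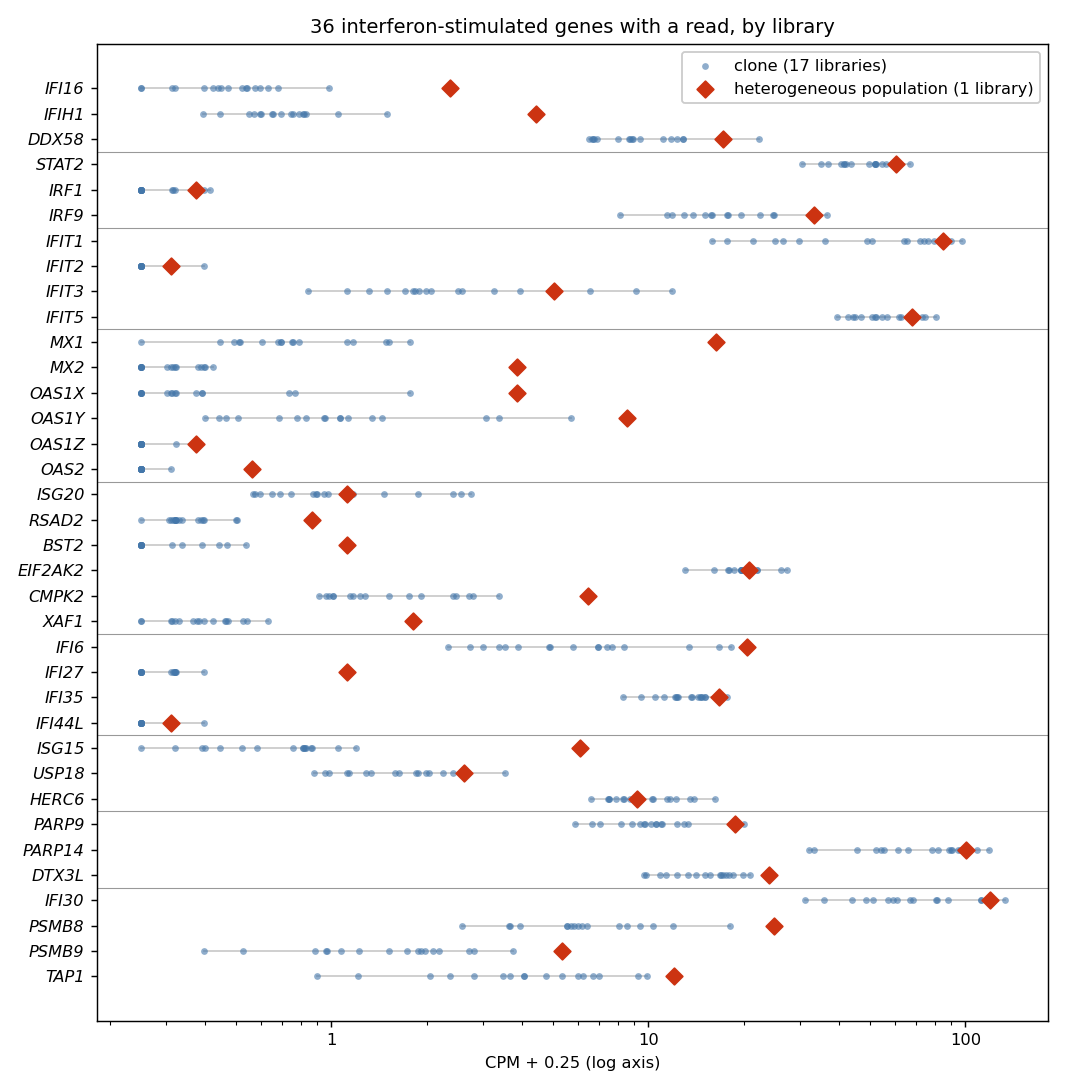
CPM + 0.25 (log axis) of the 36 interferon-stimulated genes with a read, grouped by role, with 1 point per clone and a diamond for the heterogeneous population. MX1, MX2, ISG15 and IFIH1 show the diamond far to the right of all 17 clones, while DDX58, STAT2, IRF9, IFIT1, IFIT5 and HERC6 show it inside their range.

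Other genes moved in the heterogeneous library too. Of the 22 macrophage and leukocyte markers, 9 passed the filter through a clone, and 7 of these were higher by the same edgeR test. Of the 22, 15 were tested, and all 15 were above every clone in the heterogeneous library, where 6.62% of all genes tested were. Those of the 15 that passed the filter only through the heterogeneous library had to be high there. The summed CPM of the 22 was 229 against 30.0 in the highest clone. The median of the proliferation genes was -1.92 log2 units relative to the clone median, lower than in any clone, though none of the 15 passed the edgeR test (2 were lower at an unadjusted p under 0.05, and 0 passed by DESeq2 or limma-voom). The part of these in the difference of the interferon-stimulated genes was not tested. In RNA of a whole population, a change in the share of cells that express a gene and a change in RNA per cell cannot be told apart.

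The rest of the interferon pathway was read from lists of genes outside the 39. Of 14 interferons listed, 11 were in the files and 3 had a read, with 3 reads at most (IFNB1), and IFNG had 0 in every library. None was tested. All 10 receptor and kinase genes present (listed: 11) were expressed, and 0 of the 10 tested passed the edgeR test in either direction, nor at an unadjusted p under 0.05 (0 of 10), nor by DESeq2 or limma-voom. They were steadier than the listed genes (median SD 0.27 log2 units). The receptor chains IFNAR1 and IFNAR2 had 48.2 to 86.5 and 12.8 to 24.4 CPM in the clones, and 55.9 and 18.5 CPM in the heterogeneous population. JAK2, a kinase of the interferon-γ receptor, varied most (SD 0.58, 18.4 to 77.5 CPM, highest in clone N), followed by IFNGR1 (SD 0.32, 21.0 to 49.98 CPM).

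Of 6 inhibitors, 1 of 6 tested was higher in the heterogeneous population and 0 were lower. This was PTPN6 (SHP-1), a phosphatase of blood cells, with 1 to 11 reads in the clones and 102 in the heterogeneous library (log2 difference 4.13, edgeR adjusted p = 1.26e-05). SOCS3 and SOCS1, feedback inhibitors of JAK kinases, varied most between the clones (SD 1.08 and 0.56). Of 16 genes that act upstream of interferon production, 13 passed the filter through a clone, and 0 of these 13 were called. The endosomal RNA sensors TLR7 and TLR8 and IRF8, a factor of myeloid cells, passed only through the heterogeneous library and so had to be high there, with 0 to 2 reads in each clone and 22, 14 and 31 in that library. edgeR and limma-voom called these 3, and DESeq2 called 0 of the list. The DNA sensor MB21D1 (cGAS) and TLR9 varied most between clones in this list (SD 1.11 and 0.78).

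Of 41 other interferon-stimulated genes, 39 were in the files, 27 were expressed, 28 were tested, 1 was higher in the heterogeneous population by edgeR and 0 were lower, with 1 higher by DESeq2 and 0 by limma-voom. All 28 passed through a clone, where 0.502% of genes were higher, and 1 gene is too few to set the list apart. RNF213, a large ubiquitin ligase with antimicrobial activity, was 33.2 to 73.4 CPM in the clones and 116.9 CPM in the heterogeneous population (log2 difference 1.33, SE 0.30, edgeR adjusted p = 0.0272). The 28 had a median difference of 0.42 log2 units, against -0.04 for all genes passing through a clone. For 6 of the 28 the heterogeneous population was above every clone, against 5.7% of genes passing through a clone. The 27 expressed genes had a median SD of 0.31 log2 units, close to that of all expressed genes. SAMD9, an antiviral protein, varied most (SD 1.31), with 19.2, 9.41 and 21.4 CPM in N, P and Q against a clone median of 4.07 CPM, and the chemokine CCL5 came next (SD 1.25).

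Some genes of this list lay near the pattern of clones N, P and Q and are named after their values were seen. TAP2, which pairs with TAP1, was 6.24, 9.58 and 9.03 CPM in N, P and Q against a median of 12.9. UBE2L6, an enzyme that hands on ISG15, was 2.40, 4.73 and 3.17 CPM against a median of 7.61. PSMB10, the remaining catalytic subunit of the immunoproteasome, was not low in them, at 25.9, 25.1 and 21.2 CPM against a median of 20.9. B2M, the light chain of MHC class I, was not low either, at 152.6, 76.0 and 110.6 CPM against a median of 75.1.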

How the data were processed

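Poly-adenylated RNA of 17 clones and 1 heterogeneous population was sequenced by the authors with 50-bp single-end reads. The authors aligned them to the cattle genome bosTau7 with STAR 2.3.0e and counted reads per RefSeq gene (annotation release 103) with HTSeq, whose version is not given in the sources used here, and deposited the whole-number counts without normalization. The 5 tally lines per library that name no gene stayed out of totals and tests, and reads outside genes were 18.78% to 26.81% of each file. Whether counting used strand is not given, so antisense reads could enter, and reads of near-identical copies could be lost or shared.

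CPM were taken per total of reads on genes, and log2(CPM + 0.25) described the clones. The groups were compared with edgeR 4.0.16 in R 4.3.3 (TMM, filterByExpr, glmQLFit, glmQLFTest) on counts of 11878 genes with Benjamini-Hochberg adjustment and a threshold of 0.05, with DESeq2 1.42.0 and limma 3.58.1 as alternatives. Each clone was sequenced once, and separate cultures of a clone were not analysed here, so p-values measure the spread between these libraries. The fits were tested on counts drawn at random with known changes. Other steps ran in Python 3.11.15 with pandas 2.3.3, numpy 2.4.6, matplotlib 3.10.9 and scipy 1.17.1.

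The 39 genes and all gene lists were chosen with earlier results of these data known. By rule, all listed genes are named, those with a mean of at least 1 CPM over the clones with CPM and the others with reads. Of the pathway lists, genes past the threshold and up to 2 per list with the largest SD are named, and the 12 genes most like the median of the listed genes. Other names were chosen after their values were seen. Alternatives were the normalization, the filter, the pseudocount, the tool and each clone left out in turn. Of the 39 symbols, 36 match the ARS-UCD2.0 RefSeq table (not IFIT1, DDX58 and BST2), which served for names and neighbours only. Sequences and coordinates were not used here. Some items of the files are not reported here.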

Additional observations from a re-analysis of the deposited data

How the results depend on the processing

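The number of listed genes called in the heterogeneous population was 6 with edgeR, and again 6 with DESeq2 size factors or library totals, 9 of them without a filter on low counts (adding IFI16, OAS2 and RSAD2) and 4 with the DESeq2 Wald test, which kept MX1, MX2, ISG15 and IFIH1 and lost XAF1 and IFI27. With limma-voom it was 12, adding IFI16, OAS1X, OAS1Y, BST2, CMPK2 and PSMB8. All genes called numbered 145 with edgeR and 89 with DESeq2. Over all genes, limma-voom and the fit without a filter also called more than the main edgeR fit, so their longer lists are not particular to the listed genes. The cause of these differences between tools was not tested. Leaving out each clone in turn gave 6 to 7 listed genes (the seventh was IFI16 without clone A, I or J, CMPK2 without D and OAS1X without N) and 137 to 155 genes in all. The median SD was 0.57 to 0.60 and the median rho 0.10 to 0.19 over the same omissions, lowest without clone C, G or O. With all 36 genes with a read in place of the 20 expressed ones, the median SD was 0.46 and the median rho 0.04. The cause was not tested. With TMM-scaled CPM the genes above every clone numbered 19, the 16 among them, and those below 0, without a share of all genes on that scale. The medians over the genes were then 0.26 in clone N, -0.61 in O and 0.87 in the heterogeneous population, and 0.41, -0.42 and 0.83 with a pseudocount of 1. Alternatives added after the data were seen are given beside their results. No paired analysis was possible because the labels give the libraries no replicate numbers and there is 1 heterogeneous library.

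Limits are the single heterogeneous library, 1 donor, 1 library per clone, and depth. For genes with a handful of reads, such as OAS2, RSAD2 or IRF1, differences between clones were not detectable at this depth. By counting error alone, the absence of reads for IRF7, DHX58 and IFI44 allows up to 0.2612 CPM in the shallowest library. Among the other interferon-stimulated genes listed, IFITM1, IFITM2, IFITM3 and GBP6 also had 0 reads in every library. Whether reads of any of these genes were lost in alignment or counting was not tested, and the limit does not cover such a loss.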

Other observations

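Cytokine genes driven by NF-kB, which viral sensors also switch on, were read from a list of 15 genes, 13 of them in the files. Of 8 that passed the filter through a clone, CCL2 was higher in the heterogeneous population than in the clones by the same edgeR test (log2 difference 5.49, edgeR adjusted p = 5.49e-06), where 0.502% of such genes were, and 0 were lower. IL8 passed only through the heterogeneous library, with 0 to 3 reads in the clones and 44 there. Among the genes nearest in pattern to OAS1Y over the 17 clones were P4HTM (Spearman rho 0.92) and ZSWIM1 (0.91), and among those nearest to TAP1 were PLEKHA2 (0.94) and COX10 (0.91). OAS1Y and TAP1 were chosen for this after their values were seen, and the coefficients are descriptions.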
